A study of Mus musculus with 24 samples.

Results

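Cytosolic ribosomal proteins were represented by 94 probe sets for 42 genes, out of 45037 probe sets tested and 18193 named genes. A probe set is a group of short probes designed to read a transcript or a stretch of it, and some can also read other transcripts. Of the 94, 38 carry the suffix x and 3 the suffix s, which mark probes that may be shared with other transcripts. The part of such sharing in the values was not tested. A probe set was taken when the platform annotation gave it a single symbol, formed of Rpl or Rps with digits and an optional letter, or Rplp0, Rplp1, Rplp2 or Rpsa. Ribosomal S6 kinases, pseudogenes and like genes were left out, as were 110 probe sets that carry a ribosomal protein symbol together with others. The rule itself uses no measured value, except that each gene is given by its probe set with the highest mean. The gene family was, however, chosen with earlier results of these data known. Of the 42 genes, 22 encode proteins of the large subunit and its stalk and 20 proteins of the small subunit.

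The arrays came from male mice of a pair of breeding lines that differ in contextual fear conditioning, in which an animal freezes when returned to a place where it was shocked. The low freezing animals belong to line 24 and the high freezing animals to line 25. Total RNA of amygdala and of hippocampus was hybridised to 6 arrays per line and tissue, 24 in all. No transgene, drug or other treatment is named, and the age of the animals is not given in the sources used here. Each behavioural class is 1 breeding line, whether RNA was pooled is not stated, and p-values measure only the spread between these arrays, which may be technical.

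The ribosome is built from a small subunit, which reads the messenger RNA, and a large subunit, which joins amino acids, and each holds ribosomal RNA and a set of proteins. Ribosomal protein messenger RNAs are abundant in neurons and glia, begin with a run of pyrimidines (the TOP sequence), and are translated under control of the mTORC1 kinase, a pathway studied in synaptic plasticity and memory. The proteins are assembled with ribosomal RNA in the nucleolus, and unassembled copies are degraded.

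Promoters are printed for 8 of the genes named in the tissue and line comparisons below, and not for all of them. Rpl37, Rpl11, Rps27, Rpl27 and Rpl6 were called between tissues averaged over the lines. Rps18, Rpl41 and Rplp2 had the lowest p for the interaction, which no gene passed, and no gene was called between lines. The stretches run from 60 bases before to 20 bases after the RefSeq start on GRCm38.p6, 5′ to 3′ on the gene's strand. Capitals mark CGGAAG or its reverse complement CTTCCG, the core bound by ETS factors, and, from 10 bases before to 20 after the start, CTTTC on the gene's strand, a pyrimidine stretch like that of TOP messenger RNAs.
Rpl37: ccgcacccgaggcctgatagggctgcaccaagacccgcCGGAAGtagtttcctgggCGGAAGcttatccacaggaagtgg
Rpl11: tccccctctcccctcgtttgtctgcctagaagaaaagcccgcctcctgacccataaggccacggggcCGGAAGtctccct
Rps27: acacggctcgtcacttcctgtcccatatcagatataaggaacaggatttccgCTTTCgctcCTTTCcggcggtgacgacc
Rpl27: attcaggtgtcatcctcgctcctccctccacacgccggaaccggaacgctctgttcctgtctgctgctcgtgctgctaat
Rpl6: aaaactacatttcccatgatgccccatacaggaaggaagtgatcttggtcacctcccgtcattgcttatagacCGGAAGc
Rps18: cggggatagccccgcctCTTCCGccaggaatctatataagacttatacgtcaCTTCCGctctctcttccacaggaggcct
Rpl41: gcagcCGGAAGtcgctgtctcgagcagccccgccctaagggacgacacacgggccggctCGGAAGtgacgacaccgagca
Rplp2: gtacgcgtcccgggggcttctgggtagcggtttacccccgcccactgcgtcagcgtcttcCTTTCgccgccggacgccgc
The Rpl37 stretch is chr15:5116553-5116632 (plus strand), that of Rpl11 chr4:136053374-136053453 (minus strand), that of Rps27 chr3:90213629-90213708 (minus strand), and that of Rpl27 chr11:101442185-101442264 (plus strand). Those of Rpl6, Rps18, Rpl41 and Rplp2 are chr5:121204441-121204520 (plus strand), chr17:33955646-33955725 (minus strand), chr10:128549149-128549228 (minus strand) and chr7:141447591-141447670 (plus strand). Each stretch spans the end of the promoter and the first bases of the 5′ end of the transcript.

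A RefSeq window of 300 bases, from 250 before the start to 50 after it, was matched by symbol for 37 of the 42 genes. CGGAAG was found on either strand in 27 of the 37 genes (73.0%), and in 18.8% of 27025 genes with such a window. TCTCGCGA or its reverse complement, a word of many housekeeping promoters, was found in 8 of the 37 (21.6%) and in 1.13% of all. TATAAA on either strand was found in 5 of the 37 (13.5%) and in 15.7% of all. CTTTC near the start, in a stretch of 30 bases on the gene's strand, was found in 10 of the 37 (27.0%) and in 4.43% of all. In the stretches shown, Rpl37, Rps18 and Rpl41 hold CGGAAG more than once, Rpl27 holds none of the words, and Rps27 and Rplp2 hold CTTTC. The words were chosen after the promoters had been seen, and a match is not a measured binding site. Where a gene has several windows, a match in any of them was counted, and no marked words overlap.

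By their brightest probe sets, most ribosomal protein genes had high signals, with a spread between arrays near that of other bright probe sets. Taking the brightest probe set of each gene favours high means. Of all 94 probe sets, 61 had a mean of 10 or more. On the scale log2(signal + 16), used throughout, 33 of the 42 genes had means of 10 or more over the 24 arrays (10.82 to 13.41). The other 9, which were Rpl12, Rpl14, Rpl27a, Rpl37, Rpl39, Rps6, Rps16, Rps25 and Rps27, had means from 4.15 to 9.12. A probe set's brightness depends on its probes, so these levels do not rank the genes. The SD within a group of 6 arrays had a median of 0.093 over the 42 genes. For the 33 bright genes it was 0.083, against 0.091 for the 1907 bright probe sets of the whole array, and over all probe sets it was 0.27. The smallest within-group SDs were those of Rps7 (0.054) and Rps9 (0.055), both of the small subunit, and of Rpl6 (0.056) of the large subunit. The largest were those of Rps27 (0.48), Rps6 (0.34) and Rpl14 (0.34), all among the 9 dimmer genes.

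Between amygdala and hippocampus, averaged over the lines, 9 of the 42 genes differed at an adjusted p under 0.05 (limma, Benjamini-Hochberg over all 45037 probe sets). Of these, 7 were higher in amygdala (Rpl37, Rpl27a, Rpl11, Rps24, Rps19, Rps27 and Rpl27) and 2 were lower (Rpl7 and Rpl6). The share called among all probe sets was 25.8%, with 12.9% in each direction. Among probe sets with a mean of 10 or more it was 54.2%, while 6 of the 33 bright ribosomal protein genes were called. In these bulk samples, fewer cells of a type and less RNA per cell cannot be told apart. At an unadjusted p under 0.05 there were 13 of the 42, against 35.9% of all probe sets. In absolute size, the median difference of the 42 genes was 0.074, below the 0.15 of all probe sets. The signed median, amygdala minus hippocampus, was 0.055 for the 42 genes (26 positive, 16 negative) and -0.021 for all probe sets. With quantile normalization the count was 19, of which 18 were higher in amygdala and 1 lower, and the median difference was 0.11. The share of all probe sets called with that normalization is not given here, and the 25.8% is not its background.

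**Figure D1:**
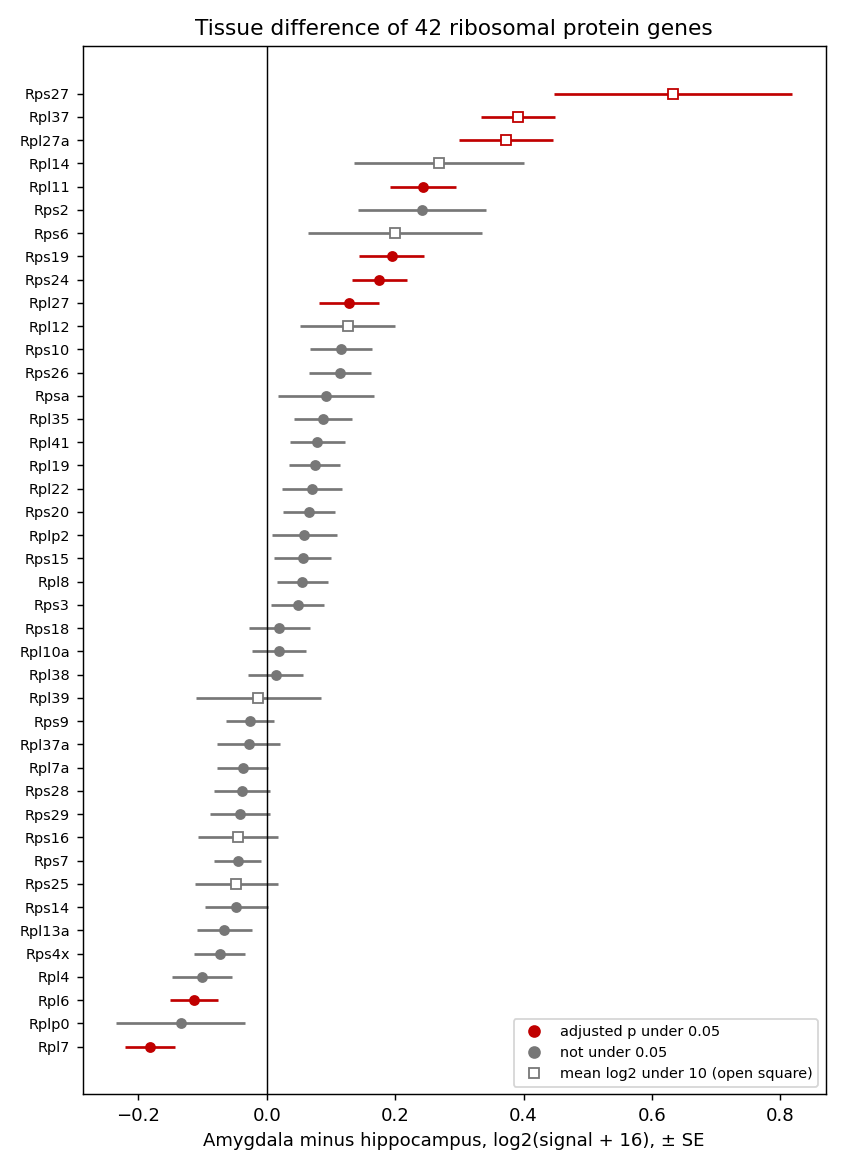
Difference between amygdala and hippocampus of each of the 42 ribosomal protein genes, on the log2(signal + 16) scale, as the limma estimate ± SE over 24 arrays. Red points are the 9 genes with an adjusted p under 0.05, open squares the 9 genes with a mean under 10. Most of the other genes lie close to 0, and Rps27 has the largest difference and the widest error.

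In the large subunit 6 of 22 genes were called, 4 of them higher in amygdala. Rpl37, a small zinc-binding protein of the large subunit (probe set 1438291_x_at), had a lowest, median and highest value of 9.03, 9.32 and 9.56 over the 12 amygdala arrays and of 8.70, 8.95 and 9.11 over the 12 hippocampus arrays. The ranges overlap only slightly. Its difference was 0.39 ± 0.058 (SE), or 1.31-fold, with a limma adjusted p of 1.14e-05. Rpl27a (1437729_at) had corresponding values of 8.29, 8.52 and 8.70 in amygdala and 7.74, 8.16 and 8.65 in hippocampus, where 1 low line array reached into the upper amygdala range. The difference was 0.37 ± 0.073 (limma adjusted p = 0.000402).

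Rpl11 binds 5S ribosomal RNA together with Rpl5 and, when free of the ribosome, inhibits the p53 ligase Mdm2. Its values (1417615_a_at) were 11.59, 11.75 and 11.95 in amygdala and 11.40, 11.52 and 11.72 in hippocampus. The group means were 11.78 ± 0.11 and 11.54 ± 0.10 (SD, n = 12 each), a difference of 0.24 ± 0.051 with a limma adjusted p of 0.000817, and the ranges overlap in part. For Rpl27 (1416099_at) the values were 11.44, 11.57 and 11.68 in amygdala and 11.25, 11.49 and 11.61 in hippocampus, and much of the ranges overlaps. Its difference of 0.13 ± 0.046 had an adjusted p of 0.0436 in limma. That call did not pass the threshold when any of 17 of the 24 arrays was left out, with differences of 0.11 to 0.15 over the 24 runs.

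Rpl7 and Rpl6, both of the large subunit, ran the other way. Rpl7 (1415979_x_at) ranged from 11.64 to 11.85 in amygdala, with a median of 11.74, and from 11.85 to 12.02 in hippocampus, with a median of 11.91. It was the 1 gene of the 42 whose tissues did not overlap, and the nearest arrays lie together at this rounding. Of all probe sets, 4.91% did not overlap. The difference was -0.18 ± 0.039 with a limma adjusted p of 0.00105, and another probe set of the gene was called the other way. Rpl6 (1416546_a_at) had 11.54, 11.65 and 11.79 in amygdala and 11.69, 11.77 and 11.84 in hippocampus, with overlapping ranges. Its difference was -0.11 ± 0.037 (limma adjusted p = 0.0265). With quantile normalization and with median centring that of Rpl6 was -0.051 and -0.099 and did not pass the threshold.

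Of the 20 small subunit genes, 3 were called, all higher in amygdala. Rps24 (1436064_x_at), which takes part in processing of the 18S precursor, had 12.50, 12.65 and 12.84 in amygdala and 12.41, 12.48 and 12.59 in hippocampus. Rps19 (1449243_a_at), also needed for 18S maturation and mutated in Diamond-Blackfan anaemia, had 11.64, 11.81 and 12.04 and 11.52, 11.61 and 11.76. In both genes the upper hippocampus arrays overlap the lower amygdala arrays. The differences were 0.18 ± 0.043 for Rps24 and 0.19 ± 0.051 for Rps19, with limma adjusted p of 0.00356 and 0.00551.

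Rps27, a zinc-binding protein of the small subunit (1460699_at), was dim and variable, with 6.75, 7.60 and 7.97 in amygdala and 6.26, 6.71 and 7.84 in hippocampus. In the low line, 2 hippocampus arrays stood as high as the upper amygdala arrays. Its means were 7.48 ± 0.40 and 6.84 ± 0.52 (SD, n = 12 each), and the difference of 0.63 ± 0.18, or 1.55-fold, had an adjusted p of 0.0127 in limma.

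**Figure D2:**
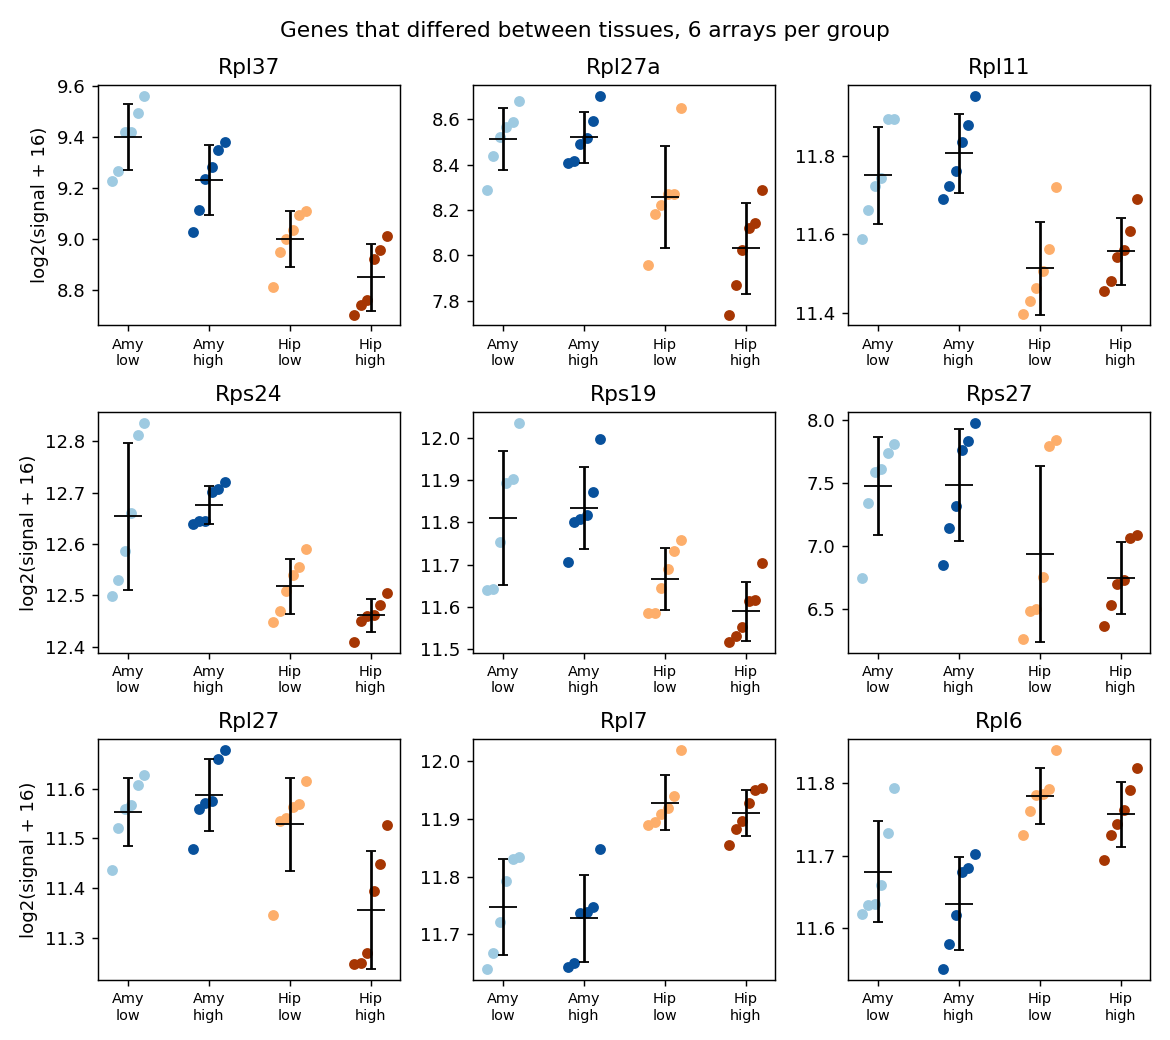
Signal on each array, as log2(signal + 16), of the 9 ribosomal protein genes called between tissues. Amy is amygdala, Hip is hippocampus, low and high are the breeding lines, points are single arrays in order of value, and bars are the mean ± SD of 6 arrays. Rpl7 is the gene whose amygdala and hippocampus arrays do not overlap.

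Genes described for their roles, whatever their values, were not called between tissues. Rplp0 and Rplp2 form the stalk that recruits elongation factors. Rplp0 differed by -0.13 ± 0.10 (limma adjusted p = 0.361) and Rplp2 by 0.059 ± 0.051 (0.446). Rps6, the substrate of the S6 kinases below mTORC1, differed by 0.20 ± 0.14 (limma adjusted p = 0.309). Rpsa, which also serves as a laminin receptor, differed by 0.092 ± 0.074, the X-linked Rps4x by -0.074 ± 0.040, and Rpl22, which has a paralogue that can replace it, by 0.070 ± 0.047. Their limma adjusted p-values were 0.402, 0.193 and 0.303. Rpl10, Rplp1 and Rps27a had no probe set with a single symbol and were not analysed here.

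Line by line, fewer genes were called between tissues in the low line than in the high line. In the low line 3 of 42 were called (Rpl11 and Rpl37 higher in amygdala, Rpl7 lower), against 13.5% of all probe sets (6.98% higher, 6.47% lower). Of the 33 bright genes 2 were called, against 37.0% of bright probe sets, and the median difference was -0.036 (16 positive, 26 negative). It was 0.0070 over all probe sets and -0.065 over the bright ones, of which 727 of 1907 were positive. The median of the 42 genes was 0.080 with quantile normalization and 0.024 with the mean of all probe sets of a gene, so its direction depends on the processing. In the high line 11 of 42 were called, against 19.1% of all probe sets (9.05% higher, 10.0% lower), and 9 of the 33 bright genes, against 40.6% of bright probe sets. The high line median was 0.097 (33 positive, 9 negative), against -0.043 over all probe sets and -0.013 over the bright ones, of which 903 of 1907 were positive. The 10 higher in amygdala were Rpl11, Rpl27, Rpl27a, Rpl37, Rpl41, Rps2, Rps10, Rps19, Rps24 and Rps26, and Rpl7 was lower. Leaving out amygdala arrays 7 and 8 of the high line together left 4 called, and leaving out array 7 alone left 7. In the low line the count was 1 without hippocampus array 5. The shares of all probe sets called in these fits with fewer arrays are not given here. These counts therefore do not show whether the ribosomal protein genes depended on those arrays more than other genes did. The 3 genes called in both lines were Rpl11, Rpl37 and Rpl7.

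Rpl41, the smallest ribosomal protein, which lies at the contact of the subunits, was among those called in the high line and not in the low line, and is given as an example chosen after its values were seen. In the high line its amygdala arrays ran from 12.73 to 12.97 and its hippocampus arrays from 12.57 to 12.68, without overlap. The share of all probe sets that did not overlap in this comparison is not given here. In the low line the ranges were 12.60 to 12.83 and 12.68 to 12.86. The tissue difference was 0.20 ± 0.061 in the high line (limma adjusted p = 0.0247) and -0.040 ± 0.061 in the low line (0.767). By another bright probe set, 1422623_x_at, it was 0.63 ± 0.13 in the high line and 0.23 ± 0.13 in the low line. The dim probe sets of Rpl41 were called in neither line, with -0.21 and -0.031 in the high line and 0.096 and 0.026 in the low line. The test of the difference between the lines in the tissue difference is the interaction given below, and no gene passed it.

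Between the lines, no ribosomal protein gene was called in either tissue. In amygdala limma called 0 of 42, and 0.00222% of all probe sets, which is 1 probe set. An unadjusted p under 0.05 was found for 0 of the 42 and for 6.54% of all probe sets, and limma adjusted p ran from 0.793 to 0.998. The difference, high minus low, was positive in 34 genes and negative in 8, with a median of 0.068, against -0.0065 over all probe sets and 0.029 over the 1907 bright ones, of which 1235 were positive. Without amygdala arrays 7 and 8 the median of the 42 genes was 0.032, and with single arrays left out in turn it ran from 0.040 to 0.085. The genes with the lowest p were Rpl37 (-0.17 ± 0.088), Rpl37a (0.13 ± 0.078), Rpl39 at the peptide exit tunnel (0.20 ± 0.13), Rpl41 (0.12 ± 0.074), Rplp2 (0.12 ± 0.089) and Rps10 (0.11 ± 0.081), with limma adjusted p of 0.793 to 0.853. With the mean of all probe sets of a gene, Rpl37a and Rps10 turned negative (-0.22 and -0.014).

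In hippocampus limma called 0 of 42 as well, and 0.0222% of all probe sets, which is 10. An unadjusted p under 0.05 was found for 2 genes, Rps18 and Rpl27, against 8.97% of all probe sets. The difference was positive in 6 genes and negative in 36, with a median of -0.056, against 0.024 over all probe sets and -0.028 over the bright ones, of which 1273 of 1907 were negative.

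Rps18, at the head of the small subunit (1455572_x_at), had a lowest, median and highest value of 11.79, 11.86 and 11.92 in the low line hippocampus and 11.58, 11.67 and 11.79 in the high line. The lines did not overlap, though the nearest arrays lie together at this rounding, and the same held for 0.637% of all probe sets and for no other of the 42 genes. In amygdala the values were 11.60, 11.75 and 11.88 in the low line and 11.62, 11.85 and 12.02 in the high line, with overlap, and no ribosomal protein gene separated the lines there (0.402% of all probe sets). The hippocampus difference was -0.19 ± 0.064, with a limma adjusted p of 0.448, and so was not called. It turned to 0.050 with the mean of all 6 probe sets of the gene.

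For Rpl27 the hippocampus arrays had 11.34, 11.55 and 11.61 in the low line and 11.25, 11.33 and 11.53 in the high line, and 1 low line array lay within the high line range. Its difference was -0.17 ± 0.077 (limma adjusted p = 0.55). Next by p stood Rpl41 (-0.12 ± 0.062), Rpl27a (-0.23 ± 0.12), Rpl37 (-0.15 ± 0.083) and Rplp2 (-0.11 ± 0.064), with limma adjusted p of 0.601 to 0.662.

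**Figure D3:**
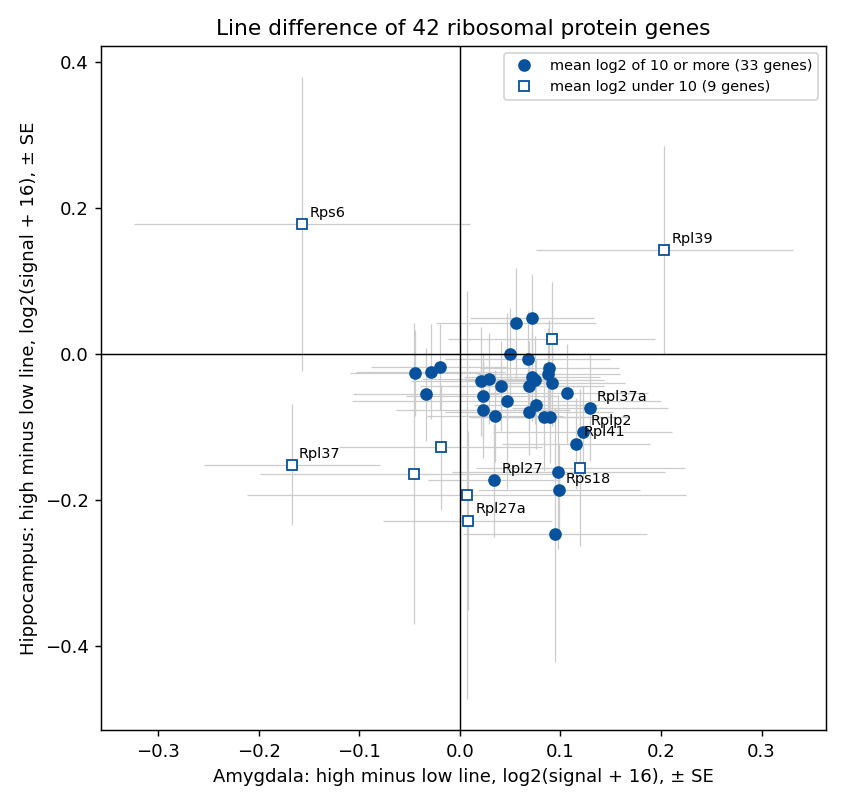
Difference between lines, high minus low, of each of the 42 ribosomal protein genes in amygdala (horizontal) and hippocampus (vertical), on the log2(signal + 16) scale, with SE bars. Most points (29 genes) lie to the right of 0 and below it, and none was called in either tissue.

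With both tissues in view, 29 genes had a positive line difference in amygdala and a negative one in hippocampus, 7 were negative in both, 5 positive in both and 1 negative in amygdala and positive in hippocampus. The difference of the line effect, amygdala minus hippocampus, was called for 0 of 42 genes and for 0 of 45037 probe sets (0.0%). At an unadjusted p under 0.05 there were 4 genes, against 7.08% of all probe sets. The median was 0.11 (37 positive, 5 negative), against -0.033 for all probe sets and 0.051 for the bright ones, 1351 of 1907 of which were positive. The lowest p-values were those of Rps18 (0.28 ± 0.095, limma adjusted p = 0.575), Rpl41 (0.24 ± 0.086, 0.624) and Rplp2 (0.23 ± 0.10, 0.679). The scaling moved these medians. That of the interaction was 0.046 with quantile normalization and 0.20 with median centring. In hippocampus the line median was -0.033 and -0.12, and in amygdala 0.024 and 0.095, in the same order.

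On several arrays most ribosomal protein genes lay on 1 side of their tissue means. Each array is described by the median deviation of the 42 genes from their tissue means. In amygdala it ran from -0.10 on array 3 of the low line, where 37 genes lay below the tissue mean, to 0.097 on array 7 of the high line, where 34 lay above. Low line arrays 2 and 4 (0.092 and 0.072) stood with high line arrays 7 and 8 (0.097 and 0.072). The lines overlap. In hippocampus the range was -0.024 to 0.072 in the low line and -0.054 to 0.0066 in the high line. The SD of this median over 6 arrays was 0.084 in the low line and 0.058 in the high line in amygdala, and 0.033 and 0.022 in hippocampus.

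**Figure D4:**
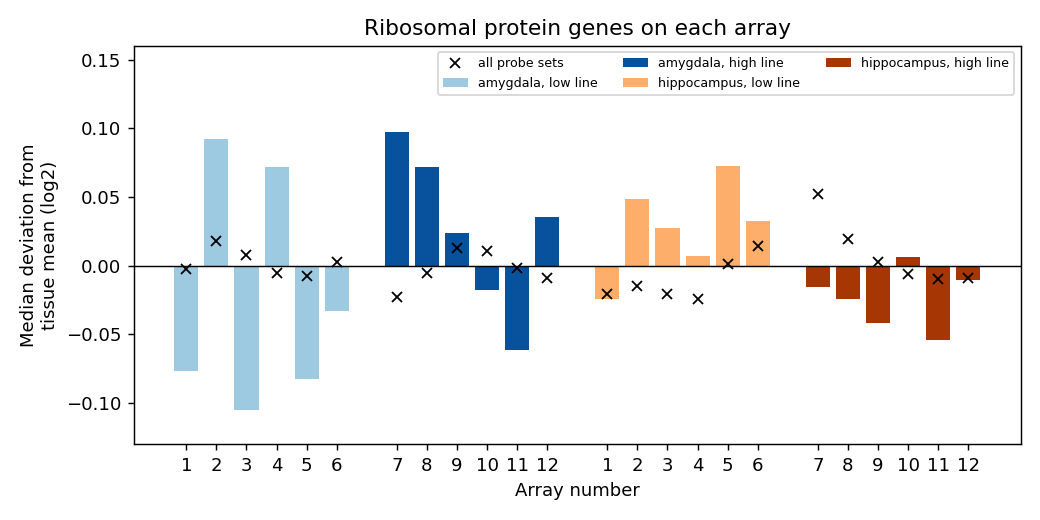
Median deviation of the 42 ribosomal protein genes from their tissue means on each array (bars, log2 scale), by tissue and line, with the same median over all probe sets as crosses. In amygdala high and low arrays are found in both lines, with array 3 lowest and array 7 highest.

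Readings of the preparation moved with some of these comparisons, and their part in the results was not tested. The ratio of the 5′ to the 3′ actin control, which falls with RNA degradation or short labelling, was 0.301 and 0.339 on amygdala arrays 7 and 8 and 0.497 to 0.630 on the other amygdala arrays. The first of these sets holds 2 of the 4 amygdala arrays with the highest ribosomal protein medians. The same ratio for Gapdh was 1.33 in amygdala and 1.40 in hippocampus of the low line, and 1.24 and 1.41 in the high line (exact permutation test, two-sided, adjusted p = 0.0416 and 0.00649). The signal of the 18S ribosomal RNA 5′ control in hippocampus was 6702 ± 501 in the low line and 5195 ± 882 in the high line (SD, n = 6; exact permutation test, two-sided, p = 0.00216, adjusted over 12 such tests 0.00649). In amygdala it was 567 ± 335 and 724 ± 459, below hippocampus in both lines (adjusted p = 0.00649 each, exact permutation test, where 0.00216 is the smallest p that 6 against 6 arrays allow).

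Markers of other cells also moved. Counts between tissues are of markers called by limma, as were 12.9% of all probe sets in each direction. Oligodendrocyte markers were called lower in amygdala in 6 of 7 (all 7 negative). Their summed signals were 10657 to 13205 there and 12983 to 18447 in hippocampus. Meningeal markers were lower in amygdala in 7 of 8 (484 to 945 against 1226 to 2060), neuronal markers in 6 of 10 with 2 higher, and astrocyte markers in 4 of 8 with 2 higher. The sum of 6 choroid plexus markers varied from 638 to 16454 across arrays of all groups. Microglial markers were called higher in amygdala in 2 of 8 (6 positive). Endothelial and choroid plexus markers were called lower in 1 of 6 each (4 negative each). Immature neuron markers were called higher in 2 and lower in 2 of 7. Between lines limma called no marker. In hippocampus the summed meningeal markers ran from 1226 to 1621 in the low line and from 1692 to 2060 in the high line, with 7 of 8 markers positive, and the sums do not overlap. The summed hippocampal markers ran from 8070 to 8882 and from 6698 to 7510, with all 7 negative, and do not overlap either. How often sums of other genes separate the lines is not given here, so neither separation has a background. Microglial markers were positive in 7 of 8 there (3150 to 3528 and 3327 to 3773). In amygdala all 6 choroid plexus markers were negative (1549 to 14036 in the low line and 638 to 13027 in the high line). None of these markers was listed at 0 on any array. Of the tissue markers, 6 of 6 amygdala markers were higher in amygdala and 7 of 7 hippocampal markers higher in hippocampus. The lists were chosen with earlier results of these data known, so these counts are no independent check of the tissue labels. The part of these markers in the ribosomal protein values was not tested.

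Different probe sets of a ribosomal protein gene did not always read alike. Of the 42 genes, 22 had several probe sets, up to 6. Over all 94 probe sets, 29 were called between tissues, 25 higher in amygdala and 4 lower, against 25.8% of all probe sets and 12.9% in each direction. For 3 genes, probe sets were called in opposite directions. For Rps18 the brightest differed by 0.020 ± 0.047 and was not called, 1448739_x_at and 1435712_a_at were higher in amygdala by 0.25 ± 0.064 and 0.26 ± 0.055, and the dim 1421838_at was lower (-0.51 ± 0.18). For Rpl22 the brightest differed by 0.070 ± 0.047 and was not called, 1416603_at was higher (0.30 ± 0.11) and 1448398_s_at lower (-0.19 ± 0.069). Rpl7 was lower by its brightest probe set (-0.18 ± 0.039) and higher by 1426163_x_at (0.18 ± 0.068), while 1426162_a_at was not called (-0.086 ± 0.039). The direction of Rpl7 therefore depends on the probe set.

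Probe sets of other genes also differed, in size or in sign. The 6 probe sets of Rps10 ran from 0.063 to 0.80, the 4 of Rpl41 (2 positive) from -0.056 to 0.43, and the 2 of Rpl27a from -0.095 to 0.37. The 4 bright probe sets of Rps24 lay between 0.18 and 0.26 and were all called, and its 2 dim ones were negative and not called. Rpl27 was called by all 3 of its probe sets. Rpl35 was called higher in amygdala by 4 of its 6, though not by its brightest (0.087 ± 0.045). With the mean of all probe sets of a gene, Rpl27a, Rpl7 and Rps24 were no longer called between tissues (0.14, -0.028 and 0.048). In hippocampus the 3 bright probe sets of Rps18 differed between lines by -0.19 ± 0.064, -0.30 ± 0.089 and -0.24 ± 0.067, while its 3 dim ones were positive, and none was called.

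**Figure D5:**
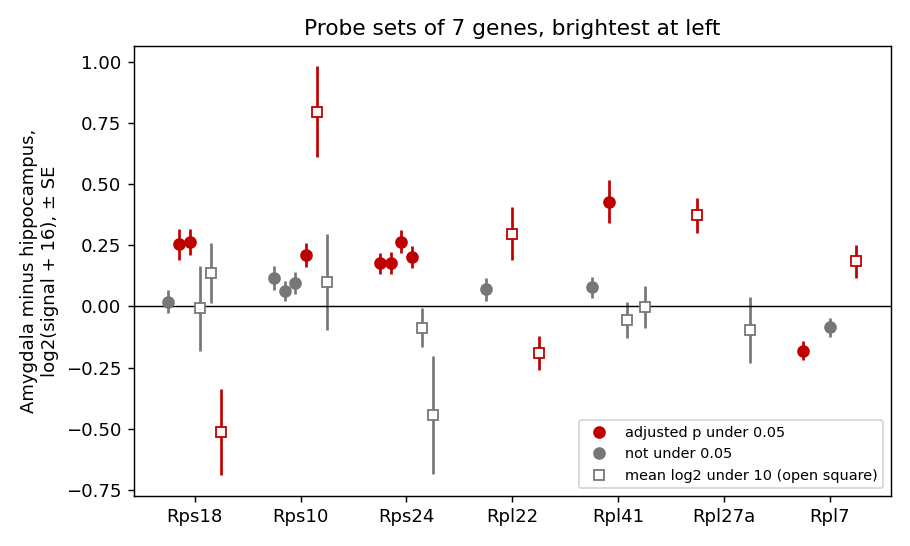
Difference between amygdala and hippocampus, as log2(signal + 16) with SE, of every probe set of 7 genes, the brightest at the left of each gene. Red marks an adjusted p under 0.05 and open squares a mean under 10. Probe sets of Rps18, Rpl22 and Rpl7 were called in both directions.

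The wider translation apparatus was also described between tissues, from lists written with earlier results of these data known. As given above, 25.8% of all probe sets were called, with a median of -0.021. Among probe sets with a mean of 10 or more, 54.2% were called, with a median of -0.037. Listed genes such as Pabpc1, Eif3e and Eef1a1 are that bright, so the 25.8% alone is a low background for these lists. Of 28 initiation factors measured, 14 were called, 5 higher in amygdala and 9 lower, with a median difference of -0.074. Pabpc1, the poly(A) binding protein, differed by -0.60 ± 0.052 and Eif3e, a subunit of the factor that loads the small subunit, by -0.25 ± 0.036, while its partners Eif3b and Eif3k were higher by 0.33 ± 0.050 and 0.26 ± 0.042. Of 10 genes listed as elongation and release factors or beside them, 5 were called, with a median of -0.057 over the list. They were Eef1b2 (0.26 ± 0.058) and Eef1e1 (0.25 ± 0.049), both higher, and Eef1a1, which delivers aminoacyl-tRNA (-0.19 ± 0.041), Gspt1 (-0.25 ± 0.055) and Abce1 (-0.15 ± 0.050), all lower.

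Of 47 ribosome assembly genes 10 were called, 6 higher and 4 lower, with a median of 0.032. The small subunit processome gene Utp4 (-0.44 ± 0.052) and Sbds (-0.27 ± 0.054), which matures the large subunit, were lower, and the snoRNP proteins Nhp2 (0.22 ± 0.045) and Gar1 (0.21 ± 0.056) higher. In the mTORC1 list 6 of 16 were called, 5 higher and 1 lower, with a median of 0.10, among them the inhibitor Tsc1 (0.45 ± 0.055), the mTORC1 subunit Rptor (0.34 ± 0.073), Rps6ka3, an S6 kinase activated by ERK (0.39 ± 0.056), and Pdk1, a mitochondrial pyruvate dehydrogenase kinase (0.30 ± 0.046), all higher. Of Fau, Tpt1, Naca and Btf3, whose products are fused to or work beside ribosomal proteins, 0 of 4 were called, with 3 positive. Between the lines, no member of these lists was called by limma in either tissue.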

How the data were processed

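The deposited values are linear signal intensities, 1 per probe set and array. The signal algorithm of the authors is not given in the sources used here. A scaling by the authors is visible in the values: with 2% of probe sets trimmed at each end, every array averages 150. Array medians ran from 43.3 to 55.7. Groups were taken from the sample descriptions. Of 45101 probe sets, 64 controls were left out. Signals were tested as log2(signal + 16) with limma 3.58.1 in R 4.3.3: line differences over the 12 arrays of a tissue, tissue differences and the interaction in a fit of 4 group means over 24 arrays, each adjusted by Benjamini-Hochberg over 45037 probe sets and called under 0.05. On this scale, changes of dim genes are understated. Summaries used Python 3.11.15 with pandas 2.3.3. Precision is limited by the number of arrays.

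Named genes are those called between tissues, the 6 of lowest p between lines in each tissue, the 3 of lowest p for the interaction, role genes fixed by name, the 3 with the largest and the 3 with the smallest within-group SD, and those whose probe sets disagree. Rps2, Rps26, Rpl35, the 9 dimmer genes and the example of Rpl41 within lines were chosen after their values were seen. Alternatives were the pseudocount, a filter, quantile normalization, median centring, an intensity trend, a block on array number, the mean of all probe sets, and arrays left out. The fits were tested on simulated data. The members and lists were chosen with earlier results of these data known.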

Additional observations from a re-analysis of the deposited data

Results flagged for a closer look

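In groups of 6 arrays, 23 ribosomal protein genes were checked for an array far from the rest, 92 groups in all, of which chance gives about 1 in 20. The gap to the nearest array, as a share of the group's whole range, was above Dixon's critical value in 5 groups. Rpl14 on amygdala array 1 of the low line was highest at 7.63, the others at 7.12 to 7.31 (share 0.628). Rpl22 on amygdala array 7 of the high line was highest at 11.23, the others at 11.00 to 11.06 (share 0.740). In the low line hippocampus, array 6 was lowest for Rpl22 at 10.88, the others at 11.01 to 11.04 (share 0.791). The same array was lowest for Rpl27 at 11.34, the others at 11.53 to 11.61 (share 0.704). Rps7 on hippocampus array 5 of the low line was highest at 12.61, the others at 12.46 to 12.50 (share 0.751).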

How the results depend on the processing

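The counts of 0 called ribosomal protein genes between lines, in each tissue, and for the interaction were 0 in all alternatives run. Between tissues the count of 9 ran from 7 (median centring) to 12 (intensity trend, or the lowest 40% of probe sets left out), except for 19 with quantile normalization, where the median was 0.11, and from 8 to 10 with an array left out. Within the low line the count was 5 with quantile normalization, with a median of 0.080, and 1 to 3 with an array left out. The low line median was 0.024 with the mean of all probe sets. Within the high line the count was 17 with the intensity trend, 4 without amygdala arrays 7 and 8, and 7 to 12 with an array left out. The shares of all probe sets called between tissues under these alternatives are not given here, so these counts have no background beside them. Median centring gave medians of 0.16 for the high line, -0.12 for the line difference in hippocampus and 0.20 for the interaction, which was 0.046 with quantile normalization. Averaging all probe sets of a gene reversed the line differences of Rps18 in hippocampus (0.050), Rpl37a in amygdala (-0.22) and Rps10 in amygdala (-0.014). This alternative gives dim probe sets equal weight. The cause of the other changes was not tested.

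The labels give arrays of both tissues the same numbers, without saying that a number marks 1 animal. Same-numbered arrays did not deviate together: correlations ran from -0.055 to 0.045 over 12 numbers, and 2 of 12 amygdala arrays correlated best with their own number. With a replicate block on the number, the counts were 9 between tissues, 3 and 11 within the low and high lines, and 0 for the interaction, as without it.

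Dim probe sets such as those of Rps16 and Rps27 limit what can be read of their genes, and differences of about 0.1 lie near the spread between arrays.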

Other observations

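The 110 probe sets left out because their annotation pairs a ribosomal protein symbol with others cover 42 ribosomal protein symbols, 27 of which had no probe set with a single symbol. Between tissues 24 of them were called by limma, 16 higher in amygdala and 8 lower, with a median difference of 0.0060, against 25.8% called and a median of -0.021 over all probe sets. Between lines 0 were called in amygdala, where 79 were positive, 31 negative and 3 had an unadjusted p under 0.05, against 6.54% of all probe sets. In hippocampus 0 were called, 20 were positive, 90 negative and 10 had an unadjusted p under 0.05, against 8.97%. The interaction had 0 called, 91 positive, 19 negative and a median of 0.098, with 13 at an unadjusted p under 0.05, against 7.08%. Bright probe sets of the whole array leaned the same way. Of 1907, 1235 were positive in amygdala, 1273 negative in hippocampus and 1351 positive for the interaction. The 110 were read on the same arrays as the 42 genes and are no independent check of them.

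A further list held like genes, paralogues and Rps3a1, a ribosomal protein gene whose symbol falls outside the rule. Of its 7 genes measured, 1 was called between tissues. Rps4l, a paralogue of Rps4x, was higher in amygdala by 0.85 ± 0.16 (SE), with means of 8.74 ± 0.33 and 7.89 ± 0.45 (SD, n = 12 each) and a limma adjusted p of 0.00027.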
